A study of Homo sapiens with 12 samples.

Results

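The RNA levels of the mismatch repair genes MSH3, MSH6, MLH3, PMS1 and PMS2 were examined in A549, a human lung adenocarcinoma cell line of epithelial origin. The 5 genes are the rows of these names among the 25365 named rows of a gene expression table, and all 5 were above the filter on low values that 11881 genes passed. The table holds 12 RNA sequencing libraries in 4 groups of 3: wild-type (WT) cells with vehicle, cells labelled PARP3-/- with vehicle, WT cells with pyridostatin, and cells labelled PARP3-/- with pyridostatin. Pyridostatin is a small molecule that binds and stabilises G-quadruplexes (G4 DNA), the 4-stranded folds of guanine-rich DNA, and was given at 1 µM for 24 h, with its solvent DMSO as the vehicle. PARP3 encodes a poly(ADP-ribose) polymerase family enzyme that acts at DNA breaks. Per the study's methods the knockout was made with Cas9, the cells were cloned by serial dilution, and the libraries are biological triplicates. The number of clones behind the libraries is not given in the sources used here, so a clone's own expression and the effect of the genotype cannot be told apart.

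Mismatch repair removes errors that DNA polymerases leave behind. A MutS heterodimer finds the mispair, a MutL heterodimer is then recruited and nicks the new strand, the strand is excised, and the gap is filled and sealed. MSH6 and MSH3 are alternative subunits of the MutS heterodimers, MSH6 for base-base mispairs and short loops and MSH3 for longer insertion or deletion loops. PMS2, PMS1 and MLH3 are alternative subunits of the MutL heterodimers, of which the one with PMS2 carries out most repair after replication.

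Levels are in FPKM, fragment counts scaled to transcript length and to library depth, so they are per length and can be set side by side between genes. The estimated depth was 21800000 to 30900000 reads per library. Keratins of epithelial cells were high in all 12 libraries, with KRT8 and KRT18 at 2210 FPKM or more and KRT19 at 83.3 to 169 FPKM, while leukocyte and endothelial markers did not exceed 0.0346 FPKM. MTAP, taken beforehand as deleted in A549 and so at or near 0, was at 1.16 to 1.55 FPKM. Of the fibroblast markers COL1A1 was at 0.572 to 1.63 FPKM and COL3A1 at no more than 0.0397 FPKM. Some of these markers differed between the genotype labels: in libraries labelled PARP3-/- KRT19 was 80.1% higher with vehicle and 81.7% higher with pyridostatin, COL1A1 was 88.6% and 64.2% higher, and KRT18 was lower over both treatments (a log2 difference of -0.24, adjusted p = 0.0128 in limma). Their part in the genotype comparisons was not tested. PARP3 RNA was not lower in the libraries labelled PARP3-/-. It stood at 3.83, 3.4 and 3.96 FPKM in WT vehicle and at 4.92, 4.07 and 4.25 FPKM in the libraries labelled PARP3-/- with vehicle (exact permutation test, two-sided p = 0.1, the smallest that 3 against 3 allows), and the gap with pyridostatin was 0.792 FPKM in the same direction. Over both treatments the log2 difference was 0.21, with the higher level under the PARP3-/- label (adjusted p = 0.0154 in limma). A level over the whole gene also counts reads outside the short stretch that was cut out, so it does not check the deletion. The study itself shows sequencing of the Cas9 deletion in the first PARP3 exon, and PARP3 immunoblots of its PARP3-/- A549 cells. The genotype is given here as the labels state it. WT vehicle replicate 2 stood apart from the other libraries. Its long transcripts (at least 5000 bases) lay 0.34 lower on the log2 scale than its short ones (under 2000 bases), relative to the mean of all libraries (a difference of -0.34), against -0.05 to 0.09 elsewhere. It was the lowest library for MSH3, MLH3 and PMS2, and results that rest on it are given with and without it.

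MSH6 was the most abundant of the 5 genes, at 27.7 to 38.7 FPKM, and exceeded each of the others in all 12 libraries. Its level was 3.43 to 5.32 times that of PMS2, the next gene. PMS2 (6.63 to 8.87 FPKM) and MSH3 (6.48 to 8.17 FPKM) did not separate: PMS2 was above MSH3 in 10 of 12 libraries, with a ratio of 0.956 to 1.17. PMS1 followed at 5.30 to 7.23 FPKM and MLH3 was lowest at 3.28 to 4.14 FPKM, and each of these was below the genes ahead of it in all 12 libraries. From the estimated depth and transcript length, the values rest on about 5100 to 7900 reads a library for MSH6 and on about 430 to 950 for the other 4 genes, for which counting alone gives an error of 3.2 to 4.8%. Across the 12 libraries the coefficient of variation was 11.7% for MSH6 and 5.89 to 8.48% for the others. MSH4 and MSH5, MutS homologs of meiosis, were listed at or near 0: MSH4 did not exceed 0.0205 FPKM, and MSH5 was listed at 0 throughout.

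**Figure D1:**
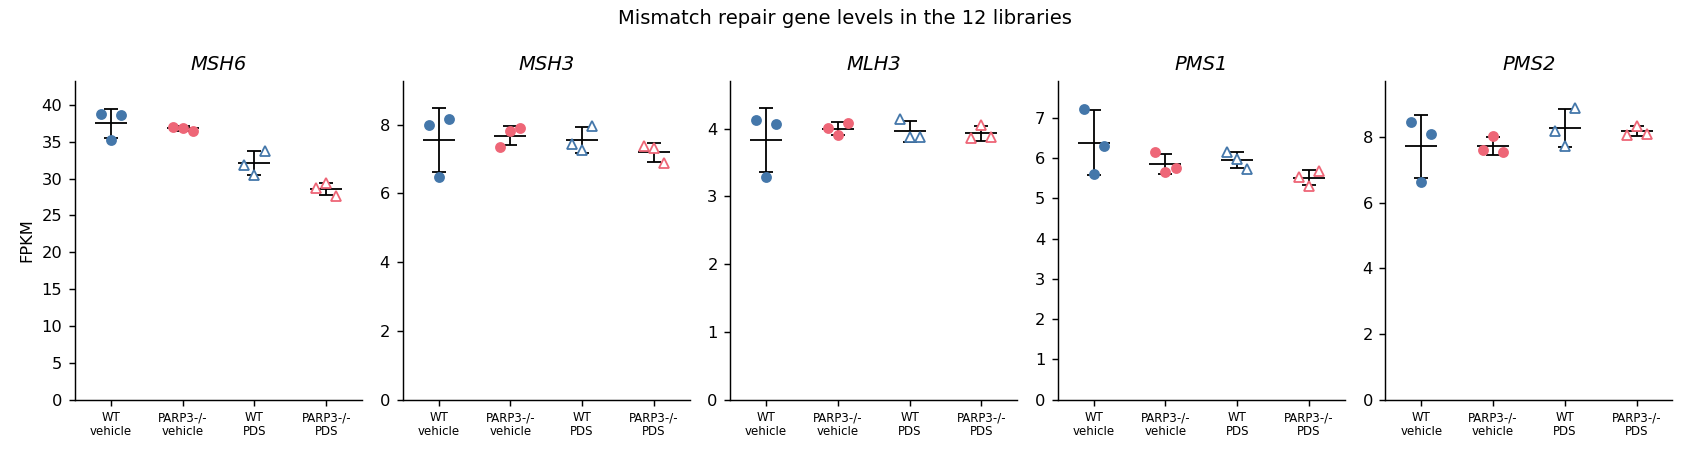
Level of each gene in FPKM (y axis, starting at 0) in the 4 groups (x axis; PDS, pyridostatin). Points are libraries, the horizontal mark is the mean and the bars are 1 SD (n = 3). MSH6 is the only panel in which all pyridostatin libraries (at most 33.8 FPKM) lie below all vehicle libraries (at least 35.3 FPKM).

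The first question was whether pyridostatin changed these genes. MSH6 was lower with pyridostatin, and no other member passed the test. In WT cells MSH6 stood at 38.7, 35.3 and 38.6 FPKM with vehicle and at 31.9, 30.5 and 33.8 FPKM with pyridostatin. In cells labelled PARP3-/- it stood at 37.0, 36.9 and 36.5 FPKM with vehicle and at 28.7, 29.4 and 27.7 FPKM with pyridostatin. Treated and untreated libraries did not overlap in either genotype. The mean fell by 14.5% in WT cells (37.5 ± 1.95 to 32.1 ± 1.64 FPKM, SD, n = 3) and fell by 22.3% in cells labelled PARP3-/- (36.8 ± 0.283 to 28.6 ± 0.837 FPKM). In bulk RNA, fewer cells carrying a transcript and less of it per cell cannot be told apart. Genes were tested with limma on log2(FPKM + 1), a scale that understates the change of low genes, with Benjamini-Hochberg adjustment over all 11881 genes and a call at an adjusted p below 0.05. The log2 fold change of MSH6 was -0.22 (SE 0.047, adjusted p = 0.0277) in WT cells and -0.35 (SE 0.047, adjusted p = 0.00196) in cells labelled PARP3-/-. Averaged over both genotypes it was -0.29 (95% confidence interval -0.36 to -0.21, adjusted p = 3.35e-04), and the median of all tested genes was 0.00093. The study's further threshold, an absolute log2 fold change above 1, was reached by no member in any comparison.

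Of all tested genes, 4.17% were called in WT cells (1.38% lower) and 5.56% in cells labelled PARP3-/- (2.52% lower), against 1 of 5 members in each. Over both genotypes 13.9% of all genes were called, 7.71% higher and 6.24% lower, again against 1 of 5 members. Groups did not overlap for 23.1% of all genes in WT cells and for 32.3% in cells labelled PARP3-/-, against 1 member (MSH6) and 2 members (MSH6 and PMS2). The call in WT cells alone rested on single libraries: its adjusted p was 0.0761 and 0.0865 without WT vehicle replicate 1 or 3, and 0.111 and 0.0741 without WT pyridostatin replicate 1 or 2. Without WT vehicle replicate 2 the log2 fold change in WT cells was -0.26 (limma adjusted p = 0.0071). The calls in cells labelled PARP3-/- and over both genotypes held in every alternative run, with adjusted p up to 0.0143 and 0.00175.

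MSH3 did not pass the test with pyridostatin. It was at 8.0, 6.48 and 8.17 FPKM in WT vehicle and at 7.43, 7.25 and 7.96 FPKM in WT pyridostatin, so the treated libraries lay between the low second vehicle library and its group mates. In cells labelled PARP3-/- it was at 7.36, 7.80 and 7.89 FPKM with vehicle and at 7.39, 7.32 and 6.88 FPKM with pyridostatin, with overlapping groups. Over both genotypes the log2 fold change was -0.04 (95% confidence interval -0.15 to 0.07, limma adjusted p = 0.659).

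The MutL genes showed no call either. PMS2, which supplies the endonuclease of the main MutL heterodimer, was at 8.45, 6.63 and 8.08 FPKM in WT vehicle and at 8.19, 7.72 and 8.87 FPKM in WT pyridostatin. In cells labelled PARP3-/- it was at 7.60, 8.04 and 7.54 FPKM with vehicle and at 8.07, 8.34 and 8.08 FPKM with pyridostatin, every treated library above every untreated one. The log2 fold change over both genotypes was 0.08 (95% confidence interval -0.04 to 0.20, limma adjusted p = 0.345).

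PMS1, whose part in repair is less well defined, was at 7.23, 5.61 and 6.31 FPKM in WT vehicle and at 6.14, 5.98 and 5.73 FPKM in WT pyridostatin. With the PARP3-/- label it was at 6.14, 5.66 and 5.75 FPKM with vehicle and at 5.54, 5.30 and 5.67 FPKM with pyridostatin. Groups overlapped in both genotypes, and the log2 fold change over both was -0.08 (95% confidence interval -0.19 to 0.03, limma adjusted p = 0.335), with -0.037 and -0.12 when WT vehicle replicate 1 or 2 was left out. MLH3, best known for its part in meiotic crossing over, was at 4.13, 3.28 and 4.07 FPKM in WT vehicle and at 4.14, 3.88 and 3.87 FPKM in WT pyridostatin. It was at 4.01, 3.90 and 4.09 FPKM with vehicle and at 3.86, 4.06 and 3.88 FPKM with pyridostatin in cells labelled PARP3-/-. Its log2 fold change over both genotypes was 0.01 (95% confidence interval -0.09 to 0.12, limma adjusted p = 0.884). For MSH3, PMS1, MLH3 and PMS2 the intervals over both genotypes leave room for a change of up to about 0.20 on the log2 scale. These libraries do not resolve such a change. Within a genotype the intervals are wider, reaching 0.26 for PMS2 in WT cells. With WT vehicle replicate 2 left out, the values over both genotypes were -0.086 for MSH3, 0.035 for PMS2 and -0.029 for MLH3, and none of the 3 was called.

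**Figure D2:**
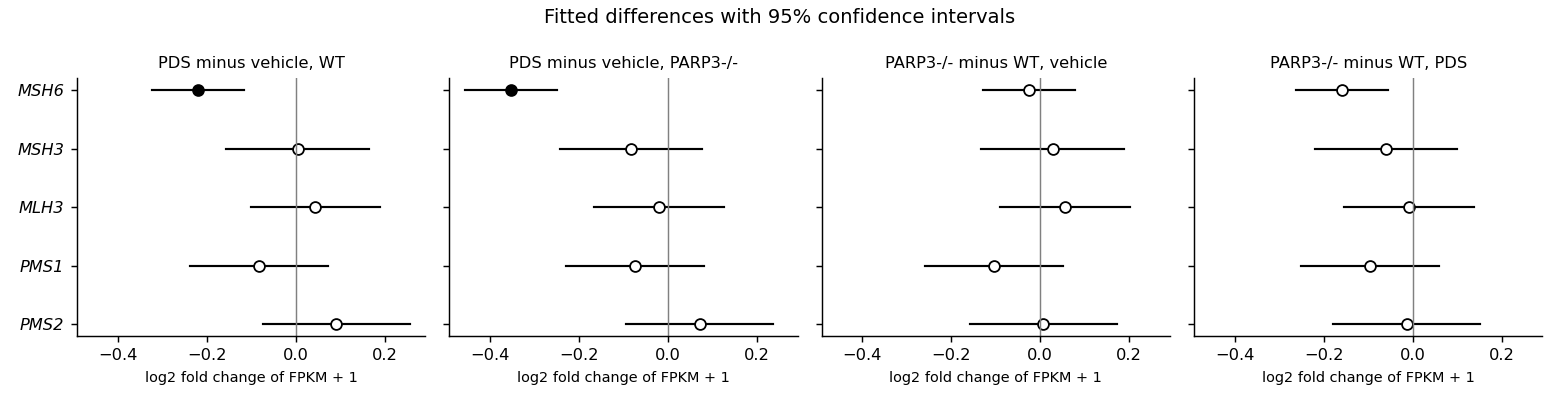
Log2 fold change of FPKM + 1 (x axis) for each gene (y axis) in the 4 pairwise comparisons, with 95% confidence intervals from limma. Filled points passed an adjusted p of 0.05: MSH6 at -0.22 and -0.35 with pyridostatin.

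The second question was whether the genotype changed these genes or their response. No member was called between cells labelled PARP3-/- and WT with vehicle (0 of 5, also 0 at an unadjusted p under 0.05), where 9.41% of all genes were called, 21.6% were under the unadjusted threshold and 24.2% had groups that did not overlap. Vehicle MSH6 differed by -0.03 on the log2 scale (95% confidence interval -0.13 to 0.08, limma adjusted p = 0.826), by -0.068 without WT vehicle replicate 2, and by -0.0028 and -0.0048 without replicates 1 and 3. With pyridostatin, 0 of 5 members were called against 10.9% of all genes, and 1 was under the unadjusted threshold against 24.0% of all genes. That gene was MSH6, 10.8% apart in the means (a difference of -10.8%), with a log2 difference of -0.16 (95% confidence interval -0.26 to -0.05, limma adjusted p = 0.0557) and no overlap between 27.7 to 29.4 FPKM in libraries labelled PARP3-/- and 30.5 to 33.8 FPKM in WT. PMS1 also did not overlap, at 5.30 to 5.67 FPKM against 5.73 to 6.14 FPKM, with a log2 difference of -0.10 (limma adjusted p = 0.466). Such separation was found for 35.2% of all genes.

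The MSH6 difference under pyridostatin crossed the threshold when WT vehicle replicate 2 (limma adjusted p = 0.0153) or WT pyridostatin replicate 2 (adjusted p = 0.0353) was left out. The difference was -0.16 after the first omission and -0.19 after the second. Averaged over both treatments no member was called (0 of 5, against 19.1% of all genes), and 1, MSH6, was under the unadjusted threshold, against 31.0% of all genes. Its log2 difference was -0.09 (limma adjusted p = 0.0817), and that of PMS1 was -0.10 (adjusted p = 0.208). Without WT vehicle replicate 2 both passed, at -0.11 for MSH6 (limma adjusted p = 0.0139) and -0.14 for PMS1 (adjusted p = 0.0250), and MSH6 also passed without WT pyridostatin replicate 2 (adjusted p = 0.0472). Without WT vehicle replicate 1 the PMS1 difference shrank to -0.06 (limma adjusted p = 0.342). MSH3, MLH3 and PMS2 differed by -0.02, 0.02 and -0.003 between genotypes over both treatments.

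The response itself was compared by the interaction, the pyridostatin effect in cells labelled PARP3-/- minus that in WT. For MSH6 it was -0.13 (95% confidence interval -0.28 to 0.01, limma adjusted p = 0.999), so a larger decrease of MSH6 in cells labelled PARP3-/- was not shown. No member was called (0 of 5) and 0 were under the unadjusted threshold, against 0.00% and 4.39% of all genes. Without WT vehicle replicate 2 the MSH6 interaction was -0.09.

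Ratios within a library do not depend on how the library was scaled, and they compare alternative partners directly. They can still carry a library's trend with transcript length, and they were not computed with that trend removed. The transcript lengths used were 7476 bases for MSH6 and 4092 for MSH3, and 2855, 3417 and 7896 for PMS2, PMS1 and MLH3. The ratio of MSH6 to MSH3 was 4.84, 5.44 and 4.72 in WT vehicle, 5.03, 4.74 and 4.62 in the vehicle libraries labelled PARP3-/-, 4.30, 4.21 and 4.25 in WT pyridostatin, and 3.89, 4.02 and 4.03 in the pyridostatin libraries labelled PARP3-/-. All pyridostatin libraries were below all vehicle libraries. The mean ratio moved from 5.0 ± 0.386 to 4.25 ± 0.0461 in WT cells and from 4.80 ± 0.21 to 3.98 ± 0.0802 in cells labelled PARP3-/- (SD, n = 3). The difference in the log2 ratio was -0.25 (exact two-sided permutation test within genotype, p = 0.005, the smallest its 400 arrangements can give, adjusted p = 0.015 over the 6 ratio tests). Between genotypes it was -0.08 (exact permutation p = 0.05, adjusted p = 0.1), and -0.046 without WT vehicle replicate 2.

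The ratio of PMS2 to PMS1 was 1.17, 1.18 and 1.28 in WT vehicle, and 1.24, 1.42 and 1.31 with the PARP3-/- label. With pyridostatin it was 1.34, 1.29 and 1.55 in WT cells, and 1.46, 1.57 and 1.43 in cells labelled PARP3-/-. Treated libraries ran higher, with overlap between 1.29 and 1.42. The log2 difference was 0.18 with pyridostatin (exact permutation p = 0.005, adjusted p = 0.015) and 0.11 between genotypes (exact permutation p = 0.075, adjusted p = 0.112). The treatment difference reached an adjusted p of 0.06 by the exact test without WT vehicle replicate 1 (0.17), WT vehicle replicate 2 (0.17) or replicate 2 of the pyridostatin libraries labelled PARP3-/- (0.16), and the genotype difference an adjusted p of 0.04 without WT pyridostatin replicate 3 (0.15). The ratio of PMS2 to MLH3, from 1.85 to 2.29 over all libraries, did not pass for pyridostatin (log2 difference 0.07, exact permutation p = 0.165, adjusted p = 0.198, and 0.040 without WT pyridostatin replicate 3) or for genotype (-0.03, exact permutation p = 0.45).

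**Figure D3:**
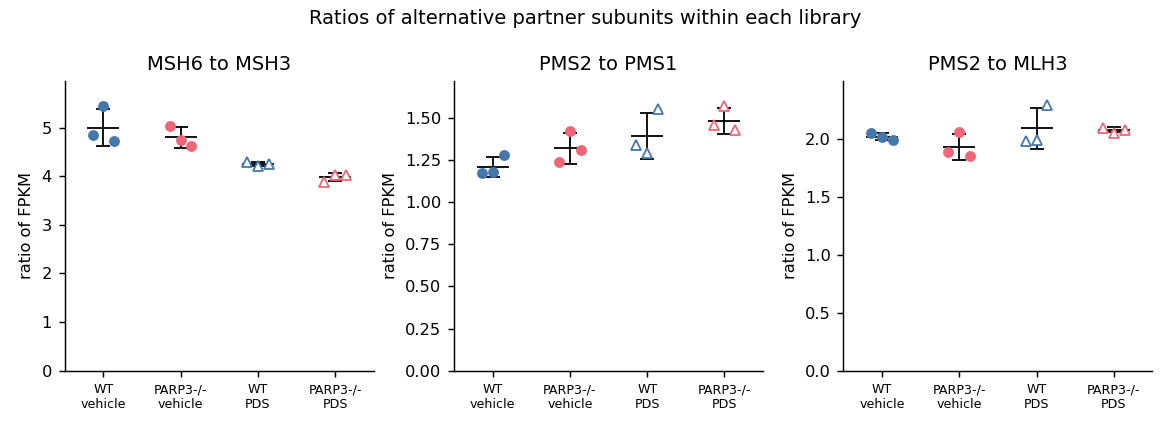
Ratio of FPKM between alternative partner subunits (y axis, starting at 0) in the 4 groups (x axis; PDS, pyridostatin). Points are libraries, marks are means and bars are 1 SD (n = 3). The MSH6 to MSH3 ratio is at most 4.30 in every pyridostatin library and at least 4.62 in every vehicle library.

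The steps after mismatch recognition were followed with 16 genes: the exonuclease EXO1, the sliding clamp PCNA, its loader RFC1 to RFC5, the single-strand binding RPA1 to RPA3, the polymerase delta subunits POLD1 to POLD4, the ligase LIG1, and HMGB1, a chromatin protein that aids excision in vitro. With pyridostatin over both genotypes 12 of 16 fell, 0 rose and 4 did not pass, with a median log2 fold change of -0.15, against 6.24% of all genes called lower and a median of 0.00093. The log2 fold change was -0.31 for RFC4 (limma adjusted p = 0.00402), -0.20 for EXO1 (adjusted p = 0.00671), -0.19 for RFC2 (adjusted p = 0.00812), -0.17 for RFC5 (adjusted p = 0.00212) and -0.14 for HMGB1 (adjusted p = 0.00206). PCNA was at 0.06 (limma adjusted p = 0.16). It was called higher under quantile normalization (0.11), with the length trend removed (0.11) and without WT vehicle replicate 2 (0.08, limma adjusted p = 0.0241). RFC1, POLD2 and POLD4 were at -0.007, -0.03 and -0.02. These steps share PCNA, its loader, RPA, polymerase delta and LIG1 with replication. Leaving out any single library left 9 to 12 genes called lower. The list was chosen with earlier results of these data known.

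Within genotypes, 0 of 16 were called in WT cells, where 4.17% of all genes were (1.38% lower). At an unadjusted p under 0.05 there were 8, where 20.3% of all genes were. In cells labelled PARP3-/- 9 of 16 were called lower, where 2.52% of all genes were. The count in cells labelled PARP3-/- was 12 without WT vehicle replicate 2 and 5 without WT pyridostatin replicate 1. It was 2 or 3 without any single vehicle library labelled PARP3-/-. It was 3, 2 and 0 without replicate 1, 2 and 3 of the pyridostatin libraries labelled PARP3-/-. The count called in WT cells was 3 without WT vehicle replicate 2 or WT pyridostatin replicate 2. The difference between genotypes in the response was called for 0 of 16 by limma (0 at an unadjusted p under 0.05). Of all genes 0.00% were called and 4.39% were under the unadjusted threshold. The median interaction of the 16 was -0.07. Between genotypes over both treatments 1 of 16 was called, against 19.1% of all genes. That gene was HMGB1, at -0.10 (limma adjusted p = 0.00879), which did not pass under quantile normalization (adjusted p = 0.0566). Without WT vehicle replicate 2, EXO1 passed as well, at -0.10 (limma adjusted p = 0.0331), and without replicate 1 of the vehicle libraries labelled PARP3-/- RPA1 was called higher besides.

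Several of these genes, like MSH6, are known to be expressed mainly in dividing cells, so 12 genes of S phase and proliferation are given beside them. With pyridostatin over both genotypes 9 of 12 fell and 0 rose, with a median log2 fold change of -0.23, against 6.24% of all genes called lower and 7.71% called higher. The replicative helicase subunits MCM6, MCM2 and MCM3 fell, with log2 fold changes of -0.36, -0.32 and -0.31 (limma adjusted p = 2.18e-05, 4.43e-05 and 2.41e-05). MKI67, TOP2A and TYMS, at -0.11, 0.02 and 0.04, did not pass, but TYMS was called higher under quantile normalization (0.09, limma adjusted p = 0.0250) and with the length trend removed (0.08, adjusted p = 0.0315). Leaving out any single library left 8 or 9 genes called lower. This list too was chosen with earlier results of these data known, and several of its genes encode subunits of the same helicase. The part of cell cycle composition in the MSH6 result was not tested.

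**Figure D4:**
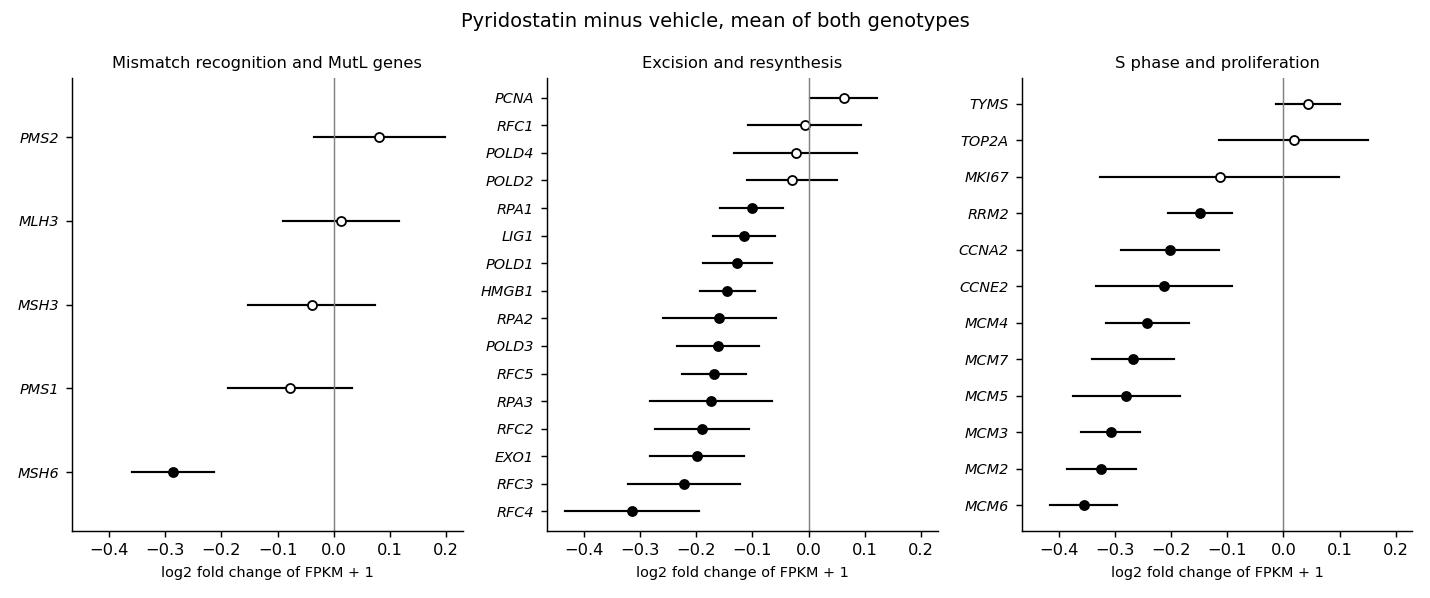
Log2 fold change of FPKM + 1 (x axis) with pyridostatin, averaged over both genotypes, with 95% confidence intervals from limma. The genes (y axis, ordered by value) are 5 of mismatch repair, 16 of excision and resynthesis, and 12 of S phase and proliferation. Filled points passed an adjusted p of 0.05: MSH6, 12 of the 16 and 9 of the 12, all lower.

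Motifs were read in the RefSeq promoter windows of MSH6, PMS1, PMS2 and MLH3 (GRCh38.p14, 250 bases before to 50 after each annotated start), 8 windows in all since MSH6 has 4 and PMS2 has 2. The strings TTTGGCGC and TTTCCCGC, which E2F factors of the G1/S transition are known to bind, were searched on both strands, as were G4 motifs, 4 runs of at least 3 G separated by 1 to 7 bases. The matches are shown for MSH6, the member whose level differed with pyridostatin. TTTCCCGC was in the first MSH6 window, as in 1.63% of all 35116 windows, and is given on the gene strand with the string in capitals.
MSH6, chr2:47783137-47783166 (+): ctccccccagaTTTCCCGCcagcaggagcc
In GENCODE v29 this stretch lies in the first, untranslated exon sequence of MSH6. TTTGGCGC, present in 0.652% of all windows, was in none of the 8, and the PMS1, PMS2 and MLH3 windows held neither string.

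G4 motifs were in 25% of all windows and in 2 of the 8 windows read here. The MSH6 windows of the first 2 starts had none. Those of the last 2 starts overlap almost wholly and held the same 3 matches, so both count the same stretch. All 3 matches lie within an intron of the transcripts from the first start. The last of these matches reads as follows on the gene strand, all letters being part of the motif.
MSH6, chr2:47783895-47783914 (+): GGGCGGGGCGGGGGGCGGGG
The GC content was 73.3 to 78.0% in the MSH6 windows, 72.0% for PMS1, 60.7 and 61.7% for PMS2 and 51.0% for MLH3, against a median of 58.7% over all windows. A match describes letters only, and no binding or folding was measured.

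PMS1 and PMS2 share their promoter region with a neighbour that starts within 1000 bases on the other strand, ORMDL1 for PMS1 (starts 10 bases apart) and AIMP2 for PMS2 (120 bases). None was found for MSH6 and MLH3. ORMDL1, a regulator of sphingolipid synthesis, fell with pyridostatin over both genotypes, moving by -0.14 on the log2 scale (adjusted p = 0.0287 in limma), beside -0.08 for PMS1. It was at 17 to 19.2 FPKM in vehicle libraries and at 15.7 to 17.4 FPKM with pyridostatin. Over both genotypes 6.24% of all genes were called lower, and in each genotype alone ORMDL1 was not called. AIMP2, a scaffold of the tRNA synthetase complex, was at 64.6 to 81.7 FPKM, and moved by -0.06 on the log2 scale (adjusted p = 0.527 in limma), beside 0.08 for PMS2. Whether the library strand was used in counting is not given in the sources used here, so reads where such neighbours overlap could be assigned to either gene.

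**Figure D5:**
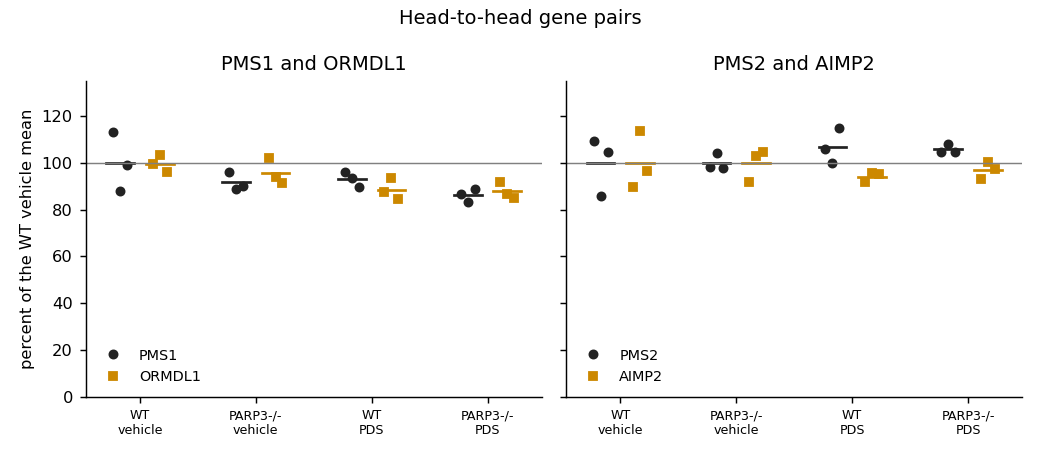
Level of PMS1 and PMS2 and their head-to-head neighbours in each library as a percent of the gene's own WT vehicle mean (y axis, starting at 0) in the 4 groups (x axis; PDS, pyridostatin). Points are libraries and lines are means of 3. ORMDL1 runs lower with pyridostatin, at 15.7 to 17.4 FPKM against 17 to 19.2 FPKM with vehicle, and AIMP2 overlaps its vehicle range.

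PMS2 has near-identical copies elsewhere in the genome, and reads of 75 bases can match several of them. Its values, and its ratios to PMS1 and MLH3 above, are uncertain to the extent that reads were shared. The table lists 7 copies, of which 6 passed the filter, and PMS2P1 (8.53 to 10.0 FPKM) was above PMS2 in all 12 libraries. No copy was called in any comparison, where 0.00% to 19.1% of all genes were called, depending on the comparison. PMS2P3 had the largest difference with pyridostatin, 0.22 on the log2 scale over both genotypes (limma adjusted p = 0.0518), and PMS2CL, which resembles the 3′ end of PMS2, was at 0.09 (adjusted p = 0.163) beside 0.08 for PMS2.

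The likeness of other genes to each member was described by Pearson's r of log2(FPKM + 1) over the 12 libraries, among 8498 genes averaging 5 FPKM or more (8499 for MLH3). The libraries fall into 4 groups, so these values include any difference between groups. The highest values of so many are also high by selection, and they were not tested. MSH6 was most like HSP90B1, a chaperone of the endoplasmic reticulum (r = 0.978, Spearman's rho = 0.923), and the mitotic kinesins KIF20A (r = 0.977, rho = 0.902) and KIF23 (r = 0.967, rho = 0.979). MSH3 was most like MRE11A, a nuclease of break repair (r = 0.899, rho = 0.881), then KIAA0368 (r = 0.884) and the chromatin remodeller BAZ1B (r = 0.872). PMS1 was most like ZAK (r = 0.890), DPYSL2 (r = 0.870) and INO80 (r = 0.869), and PMS2 most like TNRC6A (r = 0.913), USP28 (r = 0.906) and DROSHA (r = 0.897). For MLH3 the leading genes TXLNG (r = 0.936, rho = 0.776), DIS3 (r = 0.933, rho = 0.594) and HERC2P3 (r = 0.926, rho = 0.532) had much lower rank correlations, and its lowest point was WT vehicle replicate 2. Among the members themselves r ran from -0.16 (MSH6 and PMS2) to 0.71 (MSH3 and MLH3). In that library MSH3, MLH3 and PMS2 lay below the mean of the other 2 WT vehicle libraries (differences of -19.8%, -20.0% and -19.8%), as did PMS1 (-17.2%) and MSH6 (-8.74%).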

How the data were processed

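The authors deposited 1 table of FPKM values for 12 libraries, made from 75-base single-end reads of stranded poly(A) libraries. The submitters' processing notes list bcl2fastq 2.16, STAR 2.5 and Cufflinks, and the genome names mm9 and hg19 without their roles. FPKM are not counts, so the DESeq2 test of the study's methods was replaced by limma 3.58.1 in R 4.3.3 (trended variance, 4 group means, all 12 libraries) on log2(FPKM + 1) for the 11881 genes averaging 1 FPKM or more. Whole reads were not recovered from the values. Depth was estimated from the smallest steps of low values of 234 genes and GENCODE v29 transcript lengths, so read numbers are approximate, and counting errors cover counting alone. Ratios were tested by exact permutation within the other factor. The fit was tested on simulated data. Names turned into dates by a spreadsheet (28) stayed unnamed. The text names all 5 members, at most 5 genes of each longer list by smallest adjusted p besides genes that missed the threshold, neighbours within 1000 bases, and the 3 most similar genes per member. Members and lists were chosen with earlier results of these data known. Other mismatch repair genes and the protein sequences were not analysed here, and some planned items are not reported here. Alternatives were another pseudocount (0.1), no filter, a minimum of 5 FPKM, quantile normalization, a common median, no variance trend, a replicate block, only the libraries compared, each library left out, and, added after seeing the data, removal of each library's trend with transcript length.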

Additional observations from a re-analysis of the deposited data

How the results depend on the processing

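MSH6 was called lower with pyridostatin in 21 of 21 alternatives in cells labelled PARP3-/- and in 20 of 20 over both genotypes, but in 15 of 21 in WT cells. The number of members called in WT cells was 0 under quantile normalization and with only the libraries compared, and 0 to 1 with 1 library left out. Between genotypes with pyridostatin it was 1 under the common median and with the length trend removed, and 0 to 1 with 1 library left out. Between genotypes over both treatments it was 1 under quantile normalization (PMS1), the common median (MSH6) and the length trend removed (MSH6), and 0 to 2 with 1 library left out. With 1 library left out, the log2 ratio of PMS2 to PMS1 ran from 0.14 to 0.21 for treatment and from 0.087 to 0.15 for genotype, that of PMS2 to MLH3 from 0.040 to 0.099 and from -0.056 to 0.0022, and that of MSH6 to MSH3 from -0.27 to -0.22 and from -0.097 to -0.046. Whether the replicate numbers pair the samples is not given in the sources used here. Deviations of same-numbered libraries had correlations of -0.12 to 0.22, which cannot settle it. The replicate block changed no limma call of a member, while with pairing by number the treatment differences in the ratios of MSH6 to MSH3 (-0.25) and PMS2 to PMS1 (0.18) had an adjusted p of 0.0938 by the exact test. Its 64 sign arrangements allow no p below 0.03125, the value both had, and with 2 of 6 ratios at that floor the adjusted p could not pass. The causes were not tested.

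Signs turned only for values that no test called. Under quantile normalization, the common median and the removed length trend in that order, MSH3 was -0.010, -0.012 and -0.0011 between genotypes with vehicle and -0.026, -0.028 and -0.014 with pyridostatin in WT cells, PMS2 was -0.030, -0.032 and -0.0082 between genotypes with vehicle, and MLH3 was -0.019, -0.010 and -0.0038 between genotypes and -0.028, -0.014 and -0.050 with pyridostatin, each over both levels of the other factor. MLH3 in WT cells with pyridostatin was -0.0057 under quantile normalization and -0.034 with the length trend removed. With 1 library left out, MSH3 ran from -0.066 to 0.081 between genotypes with vehicle, -0.089 to 0.058 with pyridostatin in WT, -0.063 to 0.011 between genotypes over both treatments and -0.14 to 0.0059 for the interaction. MLH3 ran from -0.029 to 0.10 between genotypes with vehicle, -0.027 to 0.017 with pyridostatin, -0.019 to 0.047 over both, -0.040 to 0.091 for pyridostatin in WT, -0.029 to 0.036 over both genotypes and -0.11 to 0.020 for the interaction. PMS2 ran from -0.086 to 0.068 between genotypes with vehicle, -0.055 to 0.034 with pyridostatin, -0.049 to 0.028 over both, -0.0020 to 0.15 for pyridostatin in WT and -0.081 to 0.073 for the interaction, and PMS1 from -0.074 to 0.085 for the interaction. MLH3, with a mean of 3.93 FPKM, was not tested at a minimum of 5 FPKM.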
